A study of Sus scrofa with 6 samples.

Results

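Aminoacyl-tRNA synthetases join each amino acid to the tRNAs that carry its anticodons, the step that fixes the genetic code before the ribosome reads it. Animal cells hold a set of these enzymes for the cytosol and another, encoded by separate nuclear genes, that is imported into mitochondria to serve the translation of the mitochondrial genome. Several cytosolic enzymes sit in a multi-synthetase complex around the scaffold proteins AIMP1, AIMP2 and EEF1E1, and in mammals many cytosolic synthetase genes are targets of ATF4, the transcription factor of the amino acid response. Skeletal muscle, as the main protein store of the body, draws on the cytosolic set for its contractile proteins and on the mitochondrial set for subunits of the respiratory chain.

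A list of 37 symbols, of synthetase genes with AIMP1 and AIMP2, was matched to the expression table by Ensembl identifier and symbol, and 36 were found among its 12671 loci (FARSB was not analysed here). The cytosolic class held 20 genes, those with symbols ending in 1 (AIMP1 included), FARSA and AIMP2. The mitochondrial class held the 16 other genes, with symbols ending in 2. GARS1 and KARS1 each make the cytosolic and the mitochondrial form of their enzyme and were counted as cytosolic.

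RNA was sequenced from the longissimus dorsi, a back muscle, of female QingYu pigs (spelled Qinyu Pig in the labels), with no treatment or altered allele named. The 3 libraries of the inflection point of growth (IP) came from pigs of 178 days by the growth protocol, and the 3 libraries of the plateau phase (PP) from pigs of 395 days, while the age label of each sample gives 178 days for all 6. Values are TPM, the share of transcripts that a gene holds in its library after allowing for gene length, summing to the same total in every library, so that genes can be compared with each other. TPM holds no number of reads, so the depth behind each value is unknown and no counting interval can be given.

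The libraries differed in ways that touch every gene below. The assembled locus MSTRG.716 took 21.8% to 35.8% of a library, and the middle locus of a library stood at 4.69, 6.12 and 3.03 TPM in IP replicates 1 to 3 and 2.98, 4.52 and 3.18 in PP replicates 1 to 3. IP replicate 2 was the highest library for 61.8% of the 10896 loci tested. The median log2 fold change over these loci was 0.25 toward the IP, and it was -0.01 once each library was divided by its median-ratio size factor (called scaled TPM below), so changes are read against 0.25. Of 10 skeletal muscle markers, 7 were in the table, and they summed to 37442 to 57842 TPM at the IP and 30967 to 51160 TPM at the PP. In whole muscle, fewer cells of a type and less RNA per cell cannot be told apart.

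The cytosolic synthetases were expressed above the mitochondrial set in all 6 libraries. The median TPM over the cytosolic class was 11.5, 20.2 and 10.2 in IP replicates 1 to 3 and 9.30, 10.7 and 9.02 in PP replicates 1 to 3. The mitochondrial class had median TPM of 2.62, 4.89 and 2.18 at the IP against 2.41, 3.24 and 2.31 at the PP. Both classes were highest in IP replicate 2, and the ranges of the phases overlapped in each class. Mean TPM over the 6 libraries ran from 2.67 (CARS1) to 77.3 (KARS1) among cytosolic genes and from 0.804 (SARS2) to 15.3 (IARS2) among mitochondrial genes.

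**Figure D1:**
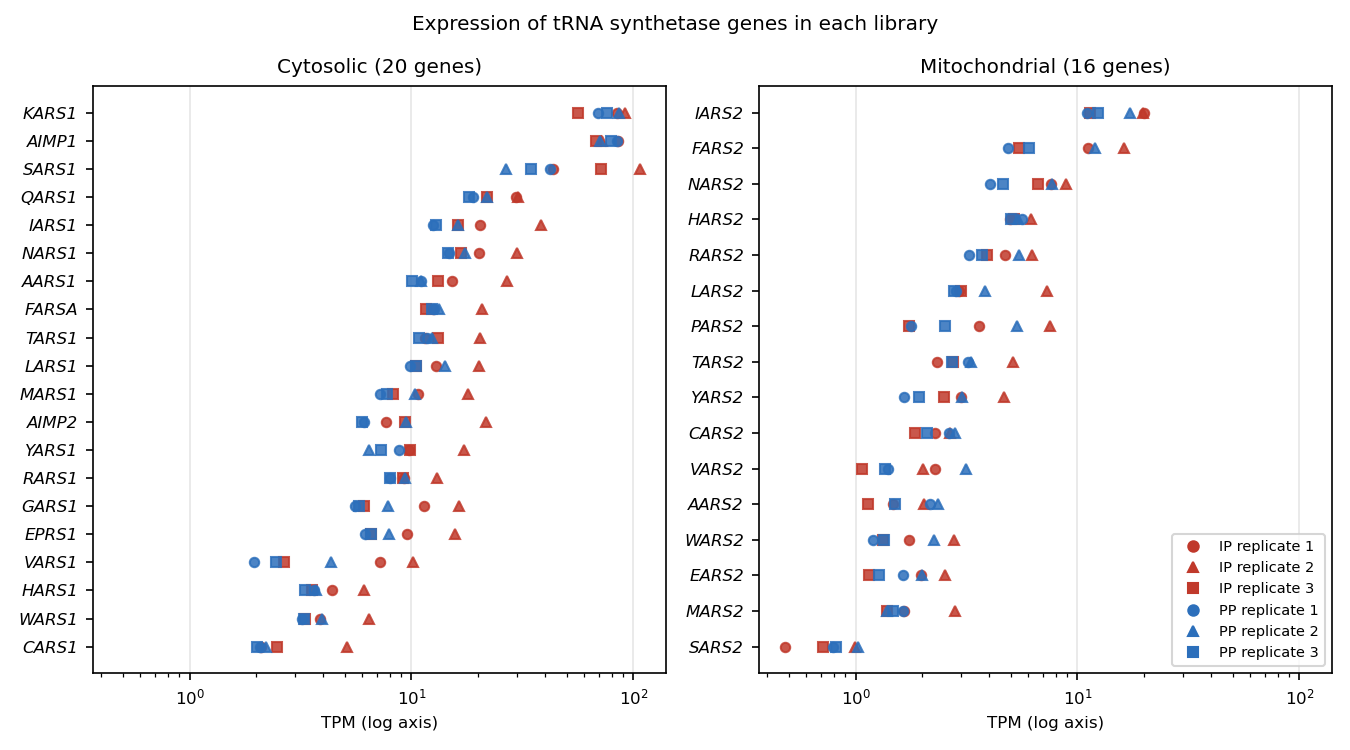
TPM on a log axis of each of the 20 cytosolic and 16 mitochondrial genes, with a point per library (red, IP; blue, PP; the shape gives the replicate) and genes ordered by mean TPM. KARS1 and AIMP1 lie at the top of the cytosolic class and IARS2 at the top of the mitochondrial class, and IP replicate 2 (red triangle) is the highest library for 19 of the 20 cytosolic genes.

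The distance between the classes was wider at the IP. Within each library, the cytosolic median of log2(TPM + 1) stood above the mitochondrial median by 1.79, 1.85 and 1.82 in IP replicates 1 to 3 and by 1.60, 1.47 and 1.59 in PP replicates 1 to 3. The phases did not overlap, with a mean difference of 1.82 ± 0.032 at the IP and 1.55 ± 0.074 at the PP (SD, n = 3), and no test was made of this summary over chosen genes. Ranked against all loci of the same library, the cytosolic median stood 36.2, 33.9 and 34.3 percentile points above the mitochondrial median at the IP and 31.0, 29.4 and 32.5 points above it at the PP. The distance between the classes varied less within a phase than either class median did, with a pooled SD of 0.057 against 0.36 for each class on the log2 scale. A shift of a whole library moves both medians and nearly cancels in their distance, so a smaller SD follows from how the distance is taken.

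**Figure D2:**
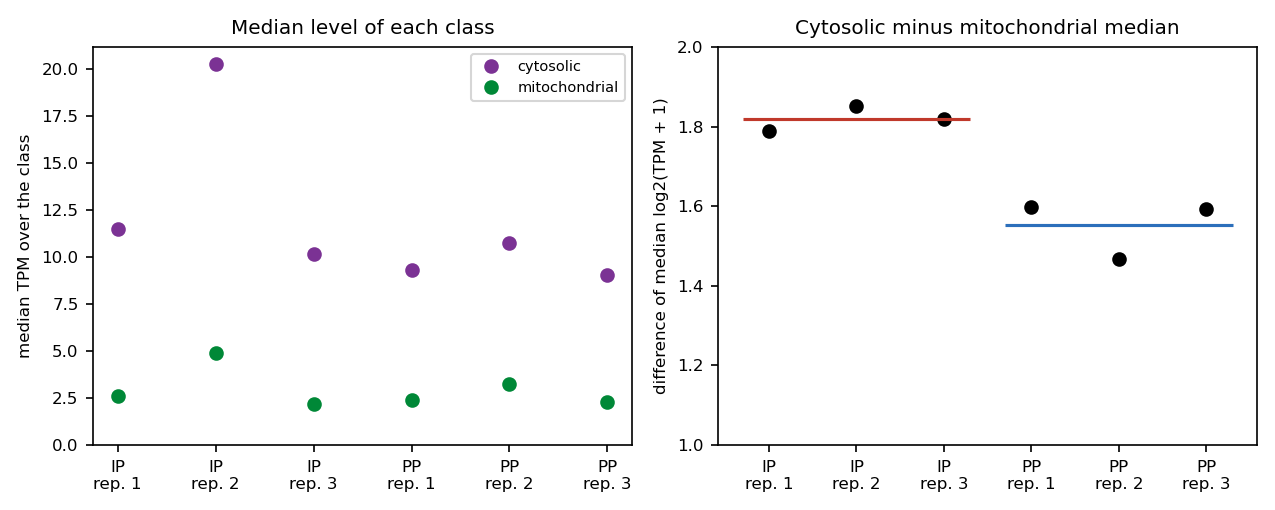
Left, median TPM over the cytosolic (purple) and mitochondrial (green) genes in each library; right, the cytosolic minus the mitochondrial median of log2(TPM + 1), with lines at the mean of each phase (the right axis does not start at 0). The 3 IP libraries lie at 1.79 to 1.85 and the 3 PP libraries at 1.47 to 1.60.

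The phases were also without overlap in this distance in 8 of 9 other ways of computing it, among them with SARS1 and SARS2 left out, where the IP exceeded the PP by 0.30 on the log2 scale. They overlapped when only genes with a mean of at least 5 TPM were kept, which left 16 cytosolic and 4 mitochondrial genes and a difference of -0.03. The separation of the phases thus did not hold without the genes below that level. Whether their level or the small number of genes kept made the difference was not tested.

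Of the 36 genes, 35 passed the filter of at least 1 TPM in at least 3 libraries and were tested with limma on log2(TPM + 1) across all loci. No gene of either class changed at a Benjamini-Hochberg adjusted p under 0.05, against 0.147% of all loci tested, and the lowest adjusted p was 0.604, for SARS1. At an unadjusted p under 0.05, 1 gene, SARS1, was higher at the IP and 0 were higher at the PP, beside 5.86% and 1.06% of all loci. The phases did not overlap, with the IP higher, in 4 of the 20 cytosolic genes (AARS1, QARS1, SARS1 and YARS1) and in 0 of the 15 mitochondrial genes tested, beside 10.8% of all loci, and with the PP higher in 0 genes, beside 2.02%.

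By fold change, the cytosolic class lay above the centre of all loci and the mitochondrial class close to it. The median log2 fold change, IP minus PP, was 0.44 over the 20 cytosolic genes (range -0.06 for AIMP1 to 1.01 for SARS1) and 0.21 over the 15 mitochondrial genes (-0.24 for AARS2 to 0.48 for NARS2), beside 0.25 over all loci. A total of 17 cytosolic and 6 mitochondrial genes lay above that 0.25. On scaled TPM the medians were 0.14 for the cytosolic and -0.04 for the mitochondrial class, so the direction of the mitochondrial median depended on the scaling. Without IP replicate 2, the cytosolic median was 0.17 and the mitochondrial median -0.05, beside 0.08 over all loci. With a mean of at least 5 TPM required, the cytosolic median was 0.44 and that of the 4 mitochondrial genes kept was 0.37. The median of all loci kept was 0.29, so both classes lay above the centre there.

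**Figure D3:**
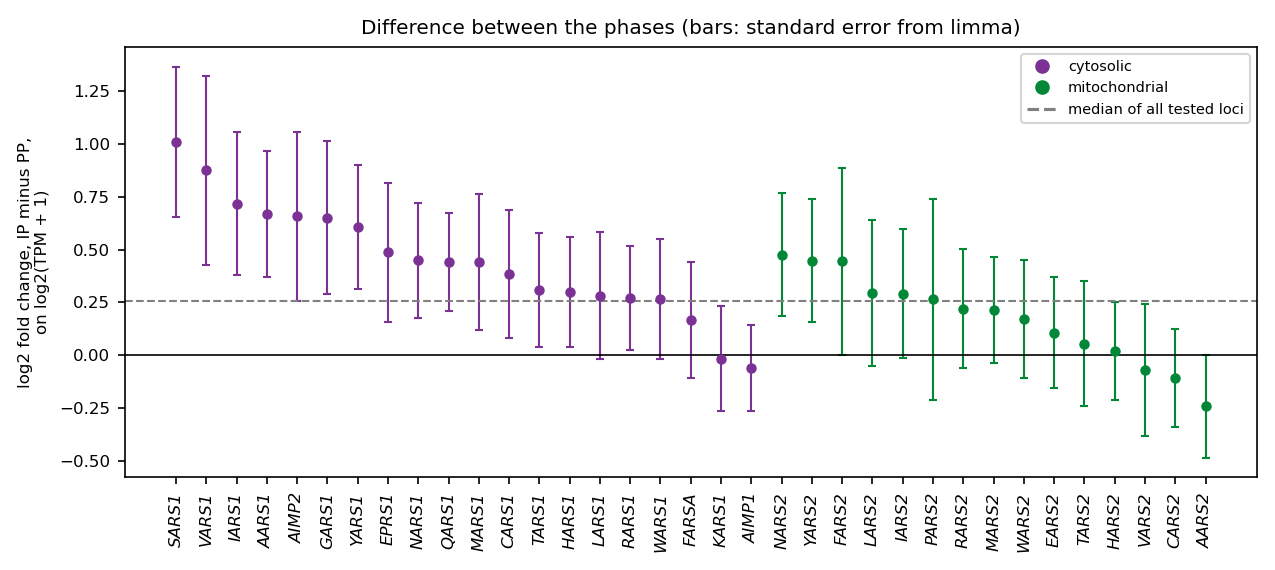
Log2 fold change (IP minus PP, on log2(TPM + 1)) of the 35 tested genes, with bars of 1 standard error from limma, ordered within the cytosolic (purple) and mitochondrial (green) class; the dashed line is the median of all tested loci, 0.25. Of the cytosolic genes 17 of 20 lie above the line and of the mitochondrial genes 6 of 15.

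Since cytosolic synthetase genes are known targets of ATF4, promoters were searched for the core of the C/EBP-ATF response element, TGATGNAA, on both strands from 250 bases before to 50 bases after each RefSeq gene start (Sscrofa11.1). RefSeq annotated 35 of the 36 genes (HARS2 was not matched). The letters were found in 4 of 20 cytosolic and 0 of 15 mitochondrial promoters, beside 2.80% of 19531 promoters of the same length. The 4 windows are shown in the orientation of the gene with the element in capitals. They are shown because 2 of them belong to genes whose phases did not overlap on the deposited scale (AARS1 and YARS1). On scaled TPM the phases of both genes overlapped.
AARS1, chr6:13321505-13321532, minus strand: ttcttggccaTTGCATCAgccaatttag
CARS1, chr2:2163329-2163352, minus strand: ggggcggtggTTGCATCAgattct
TARS1, chr16:19455309-19455336, plus strand: cgctttcctaTTGCATCAgctggcacga
YARS1, chr6:89118788-89118815, minus strand: cgagctcagcTGATGCAAcctaactgga

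The element lay 99 bases before the gene start in AARS1 and began at base 37, 26 and 33 of the gene in CARS1, TARS1 and YARS1. It read on the gene's own strand in YARS1 and on the opposite strand in AARS1, CARS1 and TARS1. The core of the NRF1 site, CGCATGCG, which marks many nuclear genes of mitochondrial proteins in mammals, was found in 0 of 20 cytosolic promoters and in 1 of 15 mitochondrial promoters, beside 2.06% of all promoters. That promoter belonged to WARS2, the mitochondrial tryptophanyl-tRNA synthetase, with the site 81 bases before the gene start.
WARS2, chr4:101787494-101787521, plus strand: agggcagagaCGCATGCGcggcaagcaa

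A match is a description of these letters and no evidence of binding. The log2 fold changes of the 4 genes with the C/EBP-ATF core were 0.67 (AARS1), 0.61 (YARS1), 0.38 (CARS1) and 0.31 (TARS1), inside the range of the cytosolic class.

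SARS1, the cytosolic seryl-tRNA synthetase (ENSSSCG00000006835.3, chr4:110857067-110874712), had the lowest p of the 36 genes. It was measured at 43.3, 107 and 71.8 TPM in IP replicates 1 to 3 and at 42.3, 26.6 and 34.6 TPM in PP replicates 1 to 3. All IP libraries lay above all PP libraries, but IP replicate 1 lay just above PP replicate 1. The log2 fold change was 1.01 (SE 0.355, unadjusted p = 0.0221, adjusted p = 0.604 by limma with Benjamini-Hochberg adjustment). On scaled TPM the phases overlapped, with 37.0, 70.6 and 88.6 at the IP against 53.9, 23.7 and 42.0 at the PP. Fitted on scaled TPM, its log2 fold change was 0.69 (unadjusted p = 0.14 by limma). The unadjusted p by limma was above 0.05 without IP replicate 2 (0.0733), without PP replicate 2 (0.0615) and without PP replicate 3 (0.0510).

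AARS1, the alanyl-tRNA synthetase of the cytosol, was measured at 15.3, 26.9 and 13.2 TPM at the IP and at 11.05, 11.08 and 10.03 TPM at the PP. The 3 PP libraries lay close together, and the spread at the IP came from replicate 2. The log2 fold change was 0.67 (SE 0.300, adjusted p = 0.747 by limma). YARS1, which charges tyrosine, was measured at 9.77, 17.2 and 9.81 TPM at the IP and at 8.79, 6.42 and 7.29 TPM at the PP. The phases did not overlap on the deposited scale, and the log2 fold change was 0.61 (SE 0.293, adjusted p = 0.762 by limma). On scaled TPM the phases overlapped in AARS1 and in YARS1.

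QARS1, the glutaminyl-tRNA synthetase and a member of the complex, was measured at 29.7, 30.2 and 21.9 TPM at the IP and at 19.0, 21.9 and 18.2 TPM at the PP. IP replicate 3 and PP replicate 2 nearly met, and QARS1 had a log2 fold change of 0.44 (SE 0.233, adjusted p = 0.783 by limma); its values are shown because its phases did not overlap, a choice made after they were seen. VARS1, the valyl-tRNA synthetase, was measured at 7.20, 10.1 and 2.67 TPM at the IP and at 1.95, 4.34 and 2.44 TPM at the PP. Its phases overlapped, since IP replicate 3 fell below PP replicate 2. Its highest library exceeded its lowest 5.20-fold, the widest spread among the 36 genes on the deposited scale (on scaled TPM it was 2.69, and SARS1 was widest at 3.73), and the log2 fold change was 0.88 (SE 0.447, adjusted p = 0.778 by limma).

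IARS1, which charges isoleucine within the complex, was measured at 20.3, 38.3 and 16.2 TPM at the IP and at 12.5, 16.2 and 12.9 TPM at the PP, for a log2 fold change of 0.72 (SE 0.338, adjusted p = 0.758 by limma). On scaled TPM its phases did not overlap, at 17.3, 25.3 and 19.9 at the IP against 16.0, 14.5 and 15.6 at the PP. IARS1, EPRS1 and GARS1 were the 3 genes whose scaled phases did not overlap with the IP higher, beside 6.6% of all loci, while AARS2, CARS2 and KARS1, and SARS2 outside the test, did not overlap with the PP higher, beside 7.26% of all loci. None of these is among the 4 genes apart on the deposited scale.

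**Figure D4:**
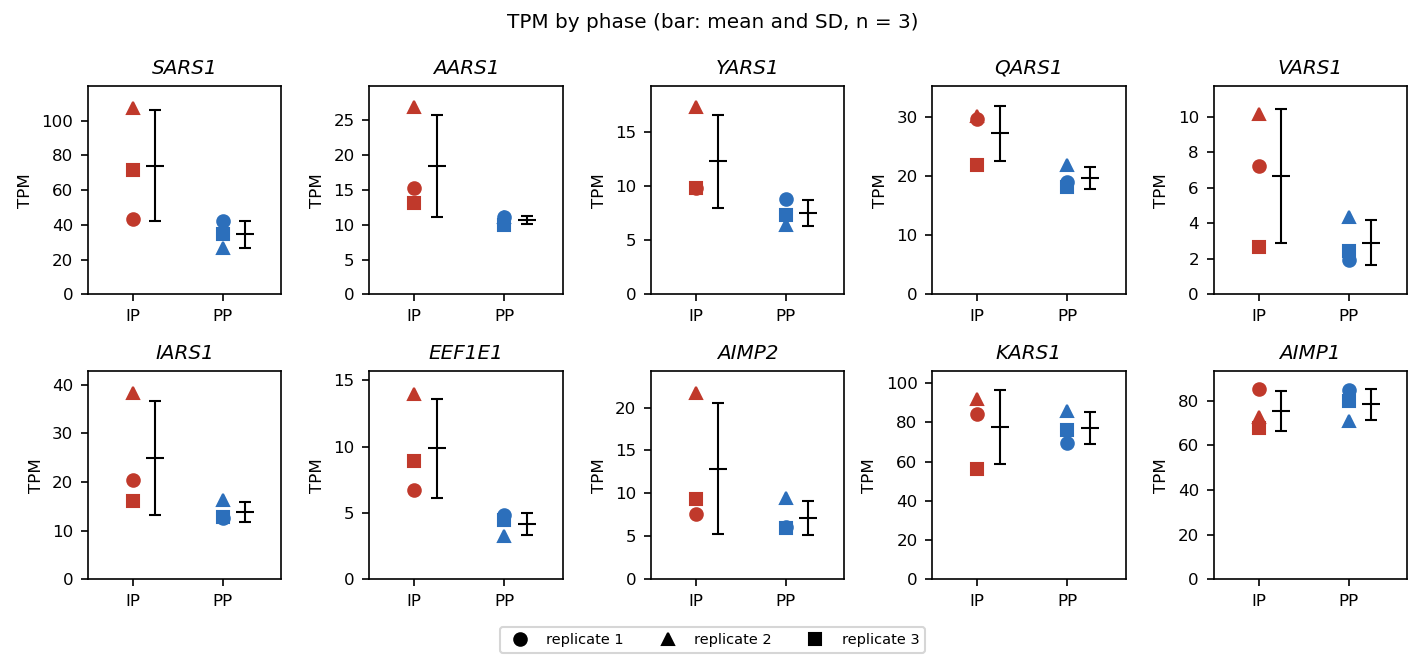
TPM of 10 genes of the cytosolic machinery at the IP (red) and PP (blue), with a point per library, the shape giving the replicate, and the mean and SD of 3 libraries beside the points; each axis starts at 0. SARS1, AARS1, YARS1, QARS1 and EEF1E1 show no overlap of the phases, while VARS1, IARS1, AIMP2, KARS1 and AIMP1 overlap.

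The 2 most abundant genes of the cytosolic class lay below the centre of all loci, with log2 fold changes relative to it of -0.27 for KARS1 and -0.32 for AIMP1. KARS1, the lysyl-tRNA synthetase of the cytosol and of mitochondria, was measured at 84.5, 91.9 and 56.3 TPM at the IP and at 69.5, 85.7 and 76.0 TPM at the PP, a log2 fold change of -0.02 (SE 0.249). AIMP1, a scaffold protein of the complex that also binds tRNA, was measured at 85.4, 72.5 and 67.9 TPM at the IP and at 84.6, 70.8 and 79.7 TPM at the PP, a log2 fold change of -0.06 (SE 0.205). On the deposited scale the phases overlapped in each gene, while on scaled TPM KARS1 was lower at the IP without overlap, at 72.2, 60.6 and 69.5 against 88.6, 76.5 and 92.1 at the PP. The fitted log2 fold changes on scaled TPM were -0.34 for KARS1 and -0.38 for AIMP1, and KARS1 and AIMP1 stood at a median percentile of 93.9 and 93.8 among the loci of a library.

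AIMP2, the scaffold protein that joins the subcomplexes, was far lower than AIMP1. It was measured at 7.66, 21.6 and 9.37 TPM at the IP and at 6.11, 9.47 and 5.96 TPM at the PP, for a log2 fold change of 0.66 (SE 0.398, adjusted p = 0.798 by limma). IP replicate 2 stood well above the other libraries, and the rest of the IP overlapped the PP. CARS1, the cysteinyl-tRNA synthetase and the lowest gene of the cytosolic class, was measured at 2.11, 5.11 and 2.48 TPM at the IP and at 2.08, 2.21 and 2.01 TPM at the PP. Only IP replicate 2 stood apart there, and the log2 fold change was 0.38 (SE 0.304).

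The remaining cytosolic genes were GARS1 (glycine), NARS1 (asparagine), EPRS1 (glutamate and proline in a single protein), MARS1 (methionine), HARS1 (histidine), TARS1 (threonine), RARS1 (arginine), WARS1 (tryptophan), LARS1 (leucine) and FARSA (the catalytic subunit for phenylalanine). Their log2 fold changes ran from 0.17 (FARSA) to 0.65 (GARS1), with IP replicate 2 the highest library in each. The 7 enzymes of the complex had a median log2 fold change of 0.44, against 0.45 for the 11 cytosolic enzymes outside it. The cytosolic enzymes of class I and class II, which differ in the fold of the catalytic domain, had medians of 0.44 (9 genes) and 0.38 (8 genes), with EPRS1, which has a domain of each class, counted in neither.

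Among mitochondrial genes, NARS2, which charges asparagine, had the lowest p. It was measured at 7.64, 8.92 and 6.65 TPM at the IP and at 4.03, 7.66 and 4.60 TPM at the PP, for a log2 fold change of 0.48 (SE 0.290, adjusted p = 0.798 by limma). PP replicate 2 reached the IP range, so the phases overlapped. YARS2, the tyrosyl-tRNA synthetase of mitochondria, was measured at 3.0, 4.65 and 2.50 TPM at the IP and at 1.66, 3.0 and 1.93 TPM at the PP, a log2 fold change of 0.45 (SE 0.289). FARS2, which charges phenylalanine and has 10 transcripts in the table, was measured at 11.2, 16.2 and 5.47 TPM at the IP and at 4.86, 11.9 and 6.07 TPM at the PP, a log2 fold change of 0.44 (SE 0.442). In each of the 3 genes PP replicate 2 was the highest PP library.

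IARS2, which charges isoleucine, was the most abundant mitochondrial synthetase. It was measured at 19.9, 19.8 and 11.4 TPM at the IP and at 11.0, 17.3 and 12.3 TPM at the PP, for a log2 fold change of 0.29 (SE 0.304), close to the centre of all loci. IP replicates 1 and 2 and PP replicate 2 were its higher libraries, and the phases overlapped.

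AARS2, the alanyl-tRNA synthetase of mitochondria, lay on the other side of 0. It was measured at 1.48, 2.04 and 1.14 TPM at the IP and at 2.17, 2.36 and 1.5 TPM at the PP, for a log2 fold change of -0.24 (SE 0.244, unadjusted p = 0.353 by limma). On scaled TPM it was 1.26, 1.35 and 1.41 at the IP against 2.77, 2.10 and 1.82 at the PP, without overlap, at a log2 fold change of -0.46 (unadjusted p = 0.0228 by limma). SARS2, which charges serine, was measured at 0.479, 0.991 and 0.715 TPM at the IP and at 0.794, 1.02 and 0.820 TPM at the PP, and it failed the filter on low values.

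The 10 other mitochondrial genes were LARS2, PARS2, RARS2, MARS2, WARS2, EARS2, TARS2, HARS2, VARS2 and CARS2, for leucine, proline, arginine, methionine, tryptophan, glutamate, threonine, histidine, valine and cysteine. Their log2 fold changes ran from -0.11 (CARS2) to 0.29 (LARS2). HARS2 varied least of the 36 genes on the deposited scale, with its highest library 1.24-fold its lowest, but that ratio was 1.77 on scaled TPM, where LARS1 varied least at 1.20. IP replicate 2 was the highest library for 11 of the 16 mitochondrial genes, PP replicate 2 for 4 and IP replicate 1 for 1.

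On scaled TPM, 10 of 20 cytosolic and 3 of 16 mitochondrial genes were highest in IP replicate 2, beside 15.4% of all loci. PP replicate 2 was the lowest library for 9 cytosolic genes and 1 mitochondrial gene, beside 19.4% of all loci. IP replicate 1 was the lowest for 8 cytosolic and 6 mitochondrial genes, beside 16.0% of all loci. The difference between the classes in these counts, and the part of these libraries in the distance between the classes, were not tested.

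A ratio of the cytosolic to the mitochondrial enzyme for the same amino acid is taken within a library, and apart from the pseudocount it does not move with that library's scaling. There were 16 such pairs, with EPRS1 in 2 of them, and the ratio was computed as log2 of (TPM + 1) over (TPM + 1). The cytosolic gene was the higher in all 6 libraries in 13 pairs. The mean ratio was higher at the IP in 13 pairs, and the phases did not overlap with the IP higher in 5 pairs and with the PP higher in 0. These are descriptions with no test, and the pairs share their libraries. No share over other pairs of genes is set beside these counts, so they have no background to be read against.

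The largest differences between the phases were in the serine, valine and alanine pairs. SARS1 over SARS2 was 4.90, 5.76 and 5.41 at the IP against 4.59, 3.77 and 4.29 at the PP, a difference of means of 1.14 in log2 ratio. SARS2 lay at 0.479 to 1.02 TPM and failed the filter, so with a pseudocount of 1 this ratio followed SARS1 more than SARS2. Without a pseudocount, the mean TPM of SARS1 was 67.5 times that of SARS2. VARS1 over VARS2 was 1.32, 1.89 and 0.83 at the IP against 0.29, 0.36 and 0.54 at the PP, a difference of 0.95. AARS1 over AARS2 was 2.72, 3.20 and 2.73 at the IP against 1.92, 1.85 and 2.14 at the PP, a difference of 0.91. In each of these pairs every IP library exceeded every PP library, and in the alanine pair the gap between the phases was wider than the spread within either.

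The other pairs without overlap were glutamate (EPRS1 over EARS2, a difference of 0.38) and threonine (TARS1 over TARS2, 0.25). The serine and alanine pairs had the highest mean ratios, at 4.79 and 2.43. The lowest was histidine, where HARS1 over HARS2 was -0.15, -0.01 and -0.44 at the IP against -0.52, -0.43 and -0.49 at the PP, so the mitochondrial gene was the more abundant in every library. Cysteine followed, where CARS1 over CARS2 was -0.08, 0.74 and 0.29 at the IP against -0.24, -0.24 and -0.04 at the PP, above 0 in 2 libraries only. The ratio was higher at the PP on average for phenylalanine (-0.28, IP minus PP), asparagine (-0.03) and leucine (-0.01), each with overlap.

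**Figure D5:**
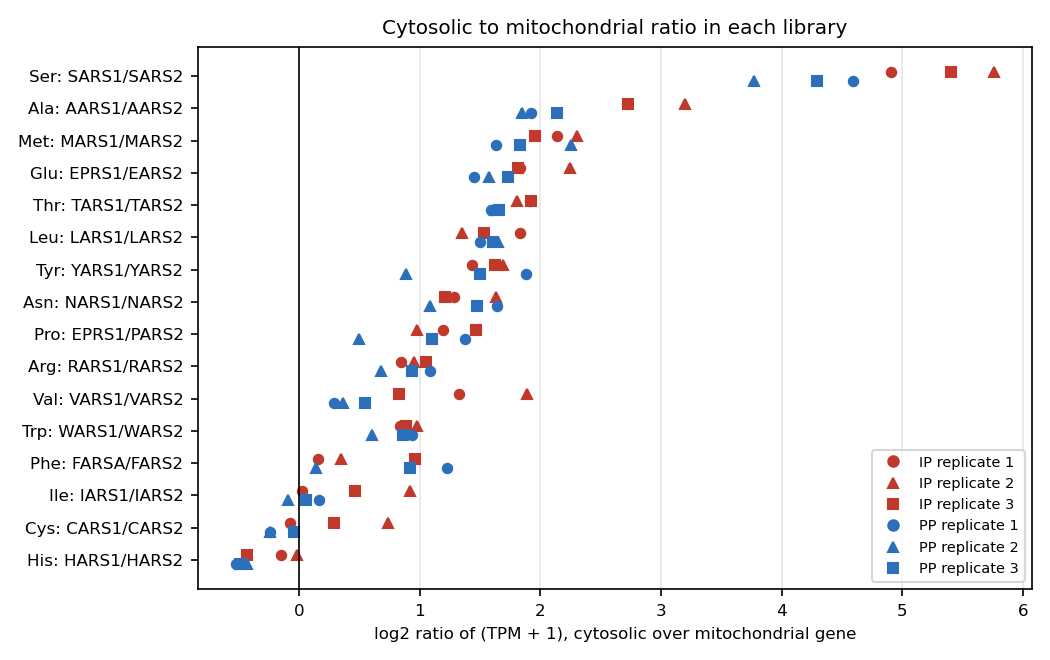
Log2 ratio of (TPM + 1) of the cytosolic over the mitochondrial gene for 16 amino acid pairs in each library (red, IP; blue, PP; the shape gives the replicate), with a line at 0 and pairs ordered by mean ratio. Serine lies highest, histidine lies below 0 in all 6 libraries, and the phases are apart for serine, valine, alanine, glutamate and threonine.

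Counting could blur some of these values. Of the 35 genes placed on Sscrofa11.1, 8 overlapped another RefSeq gene (EARS2, IARS2, MARS1, TARS1, TARS2, WARS2, YARS2 and AIMP2), and the methods do not say whether strand was used, so their values are uncertain. TARS2 shared 10847 bases with ECM1 on the same strand, and MARS1 shared 9775 bases with ARHGAP9 and 69 bases with DDIT3, a gene of the amino acid response, on the opposite strand. Between the coding sequences of a pair, the longest exact shared run was 25 bases (VARS1 and VARS2), and no coding sequence had a second genomic copy of at least 90% identity over at least 20% of its length. HARS1 and HARS2 were not compared in this way.

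On the genome the 35 genes were spread over 15 chromosomes, with few near neighbours. HARS2 was not placed, so its distance from HARS1 was not measured. EPRS1 and IARS2 lay 37.2 kb apart on chromosome 10 in opposite directions, and their log2 fold changes were 0.49 and 0.29. VARS2 and VARS1 lay 470 kb apart on chromosome 7, at -0.07 and 0.88.

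Among the partners of these enzymes, no gene changed at an adjusted p under 0.05 in any of 6 related lists. The 10 genes of the multi-synthetase complex, 9 of which belong to the 36, had a median log2 fold change of 0.44. Of these, 1 passed an unadjusted p under 0.05 with the IP higher, beside 5.86% of all loci. That gene was EEF1E1, the small scaffold protein also called AIMP3, at 6.71, 14 and 8.94 TPM at the IP and 4.83, 3.26 and 4.46 TPM at the PP. Its phases did not overlap, and its log2 fold change was 1.03 (SE 0.314, unadjusted p = 0.0117, adjusted p = 0.477 by limma). IARS1 and QARS1 followed in order of p.

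Of 11 tested genes of other tRNA charging and editing, 2 passed an unadjusted p under 0.05 with the IP higher, beside 5.86% of all loci. They were EEF1E1, already counted in the complex, and QRSL1, a subunit of the amidotransferase that makes glutaminyl-tRNA in mitochondria. QRSL1 was measured at 9.71, 16.7 and 12.8 TPM at the IP and at 8.17, 7.87 and 7.33 TPM at the PP, a log2 fold change of 0.65 (adjusted p = 0.690 by limma). DTD1, a deacylase that clears D-amino acids from tRNA, followed at 0.48, and the median of this list was 0.19, beside 0.25 over all loci.

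The 39 tested genes of tRNA end processing and modification had a median log2 fold change of 0.18. An unadjusted p under 0.05 by limma was reached by 1 gene in each direction. Over all loci the shares were 5.86% with the IP higher and 1.06% with the PP higher. POP7, a protein subunit of RNase P, was the lower at the IP, at 13.1, 10.02 and 12.9 TPM against 20.6, 17.0 and 22.5 TPM at the PP, without overlap, and its log2 fold change was -0.69 (adjusted p = 0.597 by limma). CDK5RAP1, which modifies mitochondrial tRNAs, was measured at 53.1, 61.3 and 37.8 TPM at the IP and 25.5, 38.2 and 27.5 TPM at the PP, a log2 fold change of 0.71 (adjusted p = 0.667 by limma). TRMT5, a tRNA methyltransferase, followed at 0.61.

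The 13 mitochondrial translation factors had a median log2 fold change of 0.31, with none at an unadjusted p under 0.05. TUFM, the mitochondrial elongation factor Tu, had the lowest p (log2 fold change 0.57), followed by MRRF (0.38) and MTRFR (0.43), which act in recycling and rescue of mitochondrial ribosomes. The 4 cytosolic elongation factors tested had a median of 0.05, and none passed an unadjusted p under 0.05.

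The amino acid response, which in mammals raises synthetase genes through ATF4, had the highest median of the 6 lists. Over its 15 tested genes it was 0.55, and 14 lay above 0, beside 82.6% of all loci. The genes past an unadjusted p under 0.05 were 5, all with the IP higher, beside 5.86% of all loci. ASNS, the asparagine synthetase, was measured at 10.6, 6.81 and 5.67 TPM at the IP and at 1.38, 4.15 and 2.45 TPM at the PP, without overlap, at a log2 fold change of 1.28 (adjusted p = 0.425 by limma). The others were PSAT1 (0.84) and PSPH (1.29) of serine synthesis and the transcription factors ATF5 (1.26) and CEBPG (0.76), with PSPH and CEBPG named after their values were seen. ATF5 and PSAT1 passed the filter on low values only through the IP libraries. At the PP they stood at 0.824, 0.589 and 0.499 TPM (ATF5) and 0.602, 0.376 and 0.486 TPM (PSAT1). Both could therefore enter this count and this median only with the IP higher. PSPH was at 0.500 and 0.663 TPM in PP replicates 2 and 3.

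No marker of another cell type changed at an adjusted p under 0.05 by limma. The fibroblast list had a median log2 fold change of 0.94, with 3 of 6 genes at an unadjusted p under 0.05 and the IP higher (COL1A1, COL1A2 and COL3A1), and summed to 244 to 443 TPM at the IP and 198 to 318 TPM at the PP. The 4 smooth muscle markers had a median of 0.63 and summed to 110 to 200 TPM at the IP and 86.2 to 103 TPM at the PP. An unadjusted p under 0.05 with the IP higher was reached by 2 of them (CNN1 and ACTA2), beside 5.86% of all loci. Endothelial markers summed to 37.5 to 75.9 TPM at the IP and 34.5 to 41.7 TPM at the PP, and macrophage markers to 11.5 to 19.3 and 17.4 to 19.7 TPM. Adipocyte markers summed to 237 to 351 and 220 to 524 TPM, and 3 of the 4 tested had a log2 fold change above 0. CIDEC was higher at the IP (1.44, unadjusted p under 0.05 by limma), while FABP4, the most abundant of them, was lower (-0.39). The 2 red blood cell markers in the table summed to 199 to 323 and 102 to 271 TPM. None of these markers found in the table was at 0 in any library, and their part in the differences of the synthetase genes was not tested.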

How the data were processed

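The authors sequenced poly(A) RNA of the longissimus dorsi of QingYu pigs in 3 biological replicates per phase. TopHat and Sscrofa11.1 are named in the submitters' processing notes. The methods name Cufflinks and an earlier build, and the strand setting of the quantification is not given in the sources used here. The table that the authors deposited holds TPM, a column for each library, with 0 columns unmatched. As TPM keeps no reads, precision is given by the spread between 3 libraries and no count model was fitted.

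From the deposited TPM, log2 values with a pseudocount of 1 were compared between the phases by limma 3.58.1 under R 4.3.3 (eBayes with trend, 2-sided, no block, Benjamini-Hochberg over the 10896 loci with at least 1 TPM in at least 3 libraries). The limma fit was tested on simulated data. Class medians and ratios were computed in Python 3.11.15. Gene positions, overlaps and promoters come from RefSeq of Sscrofa11.1, where 17 of 35 genes were matched by an older symbol, and coding sequences were aligned with minimap2 2.31 and blastn 2.17.0.

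All 36 genes were named. Values per library were given for the 5 genes of each class with the smallest p, the 3 highest and the lowest by mean TPM, AIMP1 and AIMP2, and for the pairs with the 3 largest phase differences and the highest and lowest ratios. Of each related list the 3 genes with the smallest p were named, those of lower rank by fold change only. A gene that the lists would hold is not reported here. The members, lists and rules were chosen with earlier results of these data known. Alternatives were other pseudocounts and filters, median-ratio and quantile scaling, the 3 most abundant loci left out, no trend, a block for the replicate number, the omission of each library in turn, GARS1 and KARS1 or the AIMP genes left out, and means in place of medians. Leaving out SARS1 and SARS2, scaled values per library and the 5 TPM minimum for the class distance were added after seeing the data.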

Additional observations from a re-analysis of the deposited data

How the results depend on the processing

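Across the 15 alternatives run, 0 synthetase genes passed an adjusted p under 0.05 in either direction by limma, and the cytosolic median stayed above the mitochondrial median. The difference of the class medians was 0.23, was 0.0762 with a mean of at least 5 TPM required, and ran from 0.17 (without PP replicate 2) to 0.30 (without PP replicate 1) with a library left out. The mitochondrial median turned from 0.21 to -0.0371 with median-ratio scaling and to -0.0439 with quantile normalization, and with a library left out it ran from -0.0537 (without IP replicate 2) to 0.35 (without IP replicate 3). The number of genes higher at the IP at an unadjusted p under 0.05 was 1, became 0 with median-ratio scaling and 0 with the 3 most abundant loci left out, and ran from 0 (without IP replicate 2 or PP replicate 3) to 7 (without IP replicate 3) with a library left out, with 2 without PP replicate 2. Over all loci the share higher at the IP by this rule was 5.86%, and it was 21.0% without IP replicate 3, 3.36% without IP replicate 2, 2.37% without PP replicate 3, 7.76% without PP replicate 2 and 6.89% with the block. Without IP replicate 3 the median log2 fold change of all loci was 0.44. The share higher at the IP was 4.07% with median-ratio scaling and 4.84% with the 3 most abundant loci left out. The number of genes higher at the PP was 0, beside 1.06% of all loci. It became 1, AARS2, with median-ratio scaling, beside 3.99% of all loci, and 1 with quantile normalization, beside 4.10%. The cause of these shifts was not tested.

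Deviations of same-numbered libraries from their phase means correlated at -0.53, 0.20 and 0.22 across loci. IP replicate 1 was closest to PP replicate 2, and the highest value was 0.64, for IP replicate 3 and PP replicate 1. These deviations were taken without scaling, so shifts of whole libraries enter them. They cannot show whether the replicate numbers pair the libraries. With the replicate number as a block, 5 genes were higher at the IP at an unadjusted p under 0.05, 0 passed the adjusted threshold, and calls over all loci went from 16 to 3. Over all loci the alternatives gave 2 to 22 calls, the lowest without IP replicate 1 or PP replicate 3 and the highest without IP replicate 3. TPM keeps no reads per locus, so the precision of low genes such as SARS2 is not known beyond the spread of 3 libraries.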
